A study of Mus musculus with 15 samples.

Results

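Transcription factors that give T cells their identity were described in the spleens of leukemic mice. The group holds 7 genes, Tcf7, Lef1, Bcl11b, Satb1, Ets1, Tox and Runx3, and its probes were chosen by the gene symbol in the deposited table. Of the 7 genes, 6 had a probe, with 10 of 25697 probes between them. The single Runx3 probe was detected on no labelled array, and no probe carried the symbol Tox, so 5 factors were tested among 10474 genes. All mice belonged to a model with Cbx7 overexpression, and RNA came from spleen cells that had not been sorted. Undifferentiated leukemia was labelled in 1 mouse (4-3), erythroid leukemia in 4 mice (2-3, 5-5, 2-3-2 and 2-3-3) and T-cell leukemia in 7 mice (2, 5, 4-1, 2-2, 5-1, 4-2 and 5-3). Mice 5-5 and 5-1 had a pair of arrays each, and 1 further array carried no type label. The labels give no age, sex or strain and hold no mouse without the overexpressed gene, so every group shares it.

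T cells arise when blood progenitors enter the thymus, receive Notch signals and switch on a set of transcription factors in sequence. Tcf7 acts early in that sequence, Lef1 shares part of its work, and Bcl11b closes off the alternative fates of the progenitor. Satb1 and Ets1 shape chromatin and gene activity in developing thymocytes, Tox is needed for the CD4 lineage, and Runx3 directs the cytotoxic lineage. Unsorted spleen holds many cell types beside leukemic cells, so a lower signal can mean fewer T-lineage cells or less RNA per cell, and these cannot be told apart here.

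Values are log2 signals after background correction and quantile normalization, and a probe was called detected at a detection p under 0.05. The undifferentiated array detected 11699 probes, the erythroid arrays 7382 to 12605 and the T-cell arrays 11278 to 12944. The 2 arrays with the fewest detected probes were the second array of mouse 5-5 and the array of mouse 2-3-2, both erythroid and called the 2 weakest arrays here. The mean log2 signal of 17 measured T-cell markers was 5.53 in the undifferentiated mouse, 5.41 to 5.97 in erythroid mice and 7.00 to 8.80 in T-cell mice. That of 18 erythroid markers was 8.83 in the undifferentiated mouse, 8.97 to 9.70 in erythroid mice and 5.07 to 8.67 in T-cell mice. The lowest T-cell marker mean of the T-cell mice and their highest erythroid marker mean both belonged to T-cell mouse 2-2, and counts of calls that change without it are given below in both ways.

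Tcf7, which opens chromatin at T-cell genes early in thymocyte development, was close to background outside the T-cell leukemias. By the probe used for the gene (ILMN_2717975), its log2 signal was 4.80 in the undifferentiated mouse. The erythroid mice 2-3, 5-5, 2-3-2 and 2-3-3 had 4.77, 4.89, 4.58 and 4.81, against a lowest of 7.11, a median of 9.10 and a highest of 9.59 in the 7 T-cell mice. All T-cell mice were high, all others were low, and the groups did not overlap. In the deposited intensities, the undifferentiated array had 125.1 and the erythroid arrays 94.7 to 134.3, against 305.8 to 1060 on the T-cell arrays. The probe was detected on 0 of 1 undifferentiated, 1 of 5 erythroid and 8 of 8 T-cell arrays. Tcf7 averaged 4.76 ± 0.13 (SD, n = 4) in erythroid mice against 8.79 ± 0.83 (SD, n = 7) in T-cell mice, a log2 change of -4.03 ± 0.39 (SE, limma adjusted p = 0.000724). By the other Tcf7 probe, with 0 of 5 erythroid arrays detected, the signal was at least 9.83-fold lower (limma adjusted p = 0.000604 for the measured log2 change of -4.09). That bound holds for the background correction used and for the group means, without the spread between mice. By the probe used for the gene, the change was -2.22 with no background correction and -2.98 with an offset of 50.

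Lef1, the close relative of Tcf7 that binds the same DNA word, was not well above background on any erythroid array. By probe ILMN_1239469, its log2 signal was 5.36 in the undifferentiated mouse. The erythroid mice 2-3, 5-5, 2-3-2 and 2-3-3 had 4.69, 4.88, 5.99 and 4.45, against a lowest of 5.37, a median of 8.67 and a highest of 10.04 in T-cell mice. The erythroid and T-cell ranges overlapped through T-cell mouse 2-2 at 5.37 and erythroid mouse 2-3-2 at 5.99. The value of mouse 2-3-2 came from 1 of the 2 weakest arrays and was not called detected. The next lowest T-cell mouse was at 8.55. Lef1 averaged 5.00 ± 0.68 (SD, n = 4) in erythroid mice against 8.58 ± 1.55 (SD, n = 7) in T-cell mice. With the erythroid arrays at their detection limit, it was at least 9.13-fold lower in erythroid leukemias (limma adjusted p = 0.0108 for the measured log2 change of -3.57 ± 0.71, SE). That bound holds for the background correction used and for the group means, without the spread between mice. The measured change was -2.06 with no background correction and -2.70 with an offset of 50. Without mouse 2-2 the change was -4.11 (limma adjusted p = 0.000205). The other Lef1 probe was not detected on any erythroid array either and was at least 7.49-fold lower (limma adjusted p = 0.0133 for the measured log2 change of -3.57).

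Bcl11b, a zinc finger factor that commits thymocytes to the T-cell fate, was lower in erythroid leukemias than in T-cell leukemias. Its log2 signal by the single probe was 4.61 in the undifferentiated mouse. The erythroid mice 2-3, 5-5, 2-3-2 and 2-3-3 had 5.03, 5.31, 4.69 and 4.54, against a lowest of 5.82, a median of 8.09 and a highest of 9.09 in T-cell mice. By mouse averages the groups did not overlap. Mouse 2-2 at 5.82 stood nearer to the erythroid mice than to the next T-cell mouse at 7.57. On its first array alone, erythroid mouse 5-5 read 5.83, just above mouse 2-2. Its second array, 1 of the 2 weakest, read 4.78 and did not detect the probe. Bcl11b averaged 4.89 ± 0.34 (SD, n = 4) in erythroid mice against 7.92 ± 1.10 (SD, n = 7) in T-cell mice, a log2 change of -3.03 ± 0.51 (SE, limma adjusted p = 0.00599).

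Because the factors moved together between the types, the promoter windows of RefSeq (GRCm38.p6, 250 bases before each listed start) were searched on both strands for the DNA words of 4 factor families. The words were CTTTGA for TCF and LEF, TGTGGT for RUNX, AGGAAG for ETS and AGATAA for GATA. Windows were held for 5 of the 7 genes, and Ets1 and Tox had none. The windows of Tcf7, Lef1 and Satb1 held no word. The windows of Tcf7 and Bcl11b lie inside the listed genes, so the bases before the starts of these genes were not searched. That of Bcl11b held 1 TCF and LEF word 89 bases before the listed start (stretch shown: chr12:108003486-108003515, minus strand). That of Runx3 held 2 RUNX words, 134 and 126 bases before the start, both on the minus strand. In the stretch shown (chr4:135120499-135120528, plus strand) they read as the reverse complement, ACCACA. Both stretches are shown because their words are those of factor families in the group; capitals mark 1 word in each, and the second Runx3 word follows in lower case:
Bcl11b: agaggccaagcaCTTTGAagaagtgtgaga
Runx3: tctggtccctcaACCACAgaaccacaaggc
Of 27025 windows of this length, 14.1% held the TCF and LEF word, 14.2% the RUNX word, 29.2% the ETS word and 10.2% the GATA word. A match is a description of letters and no evidence of binding.

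Satb1, which folds chromatin in thymocytes, was lower in erythroid leukemias but remained detected in every mouse. Its log2 signal was 9.08 in the undifferentiated mouse. The erythroid mice 2-3, 5-5, 2-3-2 and 2-3-3 had 7.80, 9.81, 8.62 and 6.99, against a lowest of 10.50, a median of 11.60 and a highest of 12.19 in T-cell mice. The highest erythroid mouse, 5-5, lay below the lowest T-cell mouse, 2-2, so the groups did not overlap. Satb1 averaged 8.31 ± 1.21 (SD, n = 4) in erythroid mice against 11.53 ± 0.52 (SD, n = 7) in T-cell mice, a log2 change of -3.22 ± 0.46 (SE, limma adjusted p = 0.0025). It was detected on all 14 labelled arrays, and of the 5 factors it had the widest spread among erythroid mice and the narrowest among T-cell mice.

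Ets1, an ETS-domain factor with a role in thymocyte survival and in the activity of T-cell receptor genes, was measured by 3 probes. By probe ILMN_3157483, its log2 signal was 6.05 in the undifferentiated mouse. The erythroid mice 2-3, 5-5, 2-3-2 and 2-3-3 had 6.74, 6.88, 6.04 and 5.63, against a lowest of 7.85, a median of 9.55 and a highest of 10.34 in T-cell mice. The groups did not overlap. Ets1 averaged 6.32 ± 0.59 (SD, n = 4) in erythroid mice against 9.33 ± 0.90 (SD, n = 7) in T-cell mice, a log2 change of -3.01 ± 0.45 (SE, limma adjusted p = 0.00328). The other 2 probes gave -2.39 and -2.96 (limma adjusted p = 0.00749 and 0.00689), so all 3 probes moved the same way. The probe used was detected on 4 of 5 erythroid arrays and the other 2 on 2 of 5 each.

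Runx3, a partner of Cbfb that silences CD4 in cytotoxic T cells, had no measurable signal. Its probe read 4.38 in the undifferentiated mouse, 4.51 ± 0.11 (SD, n = 4) in erythroid mice against 4.45 ± 0.03 (SD, n = 7) in T-cell mice, and it was detected on 0 of 14 labelled arrays. It did not pass the filter, and neither a level nor a change can be read from it. Tox was not analysed here.

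**Figure D1:**
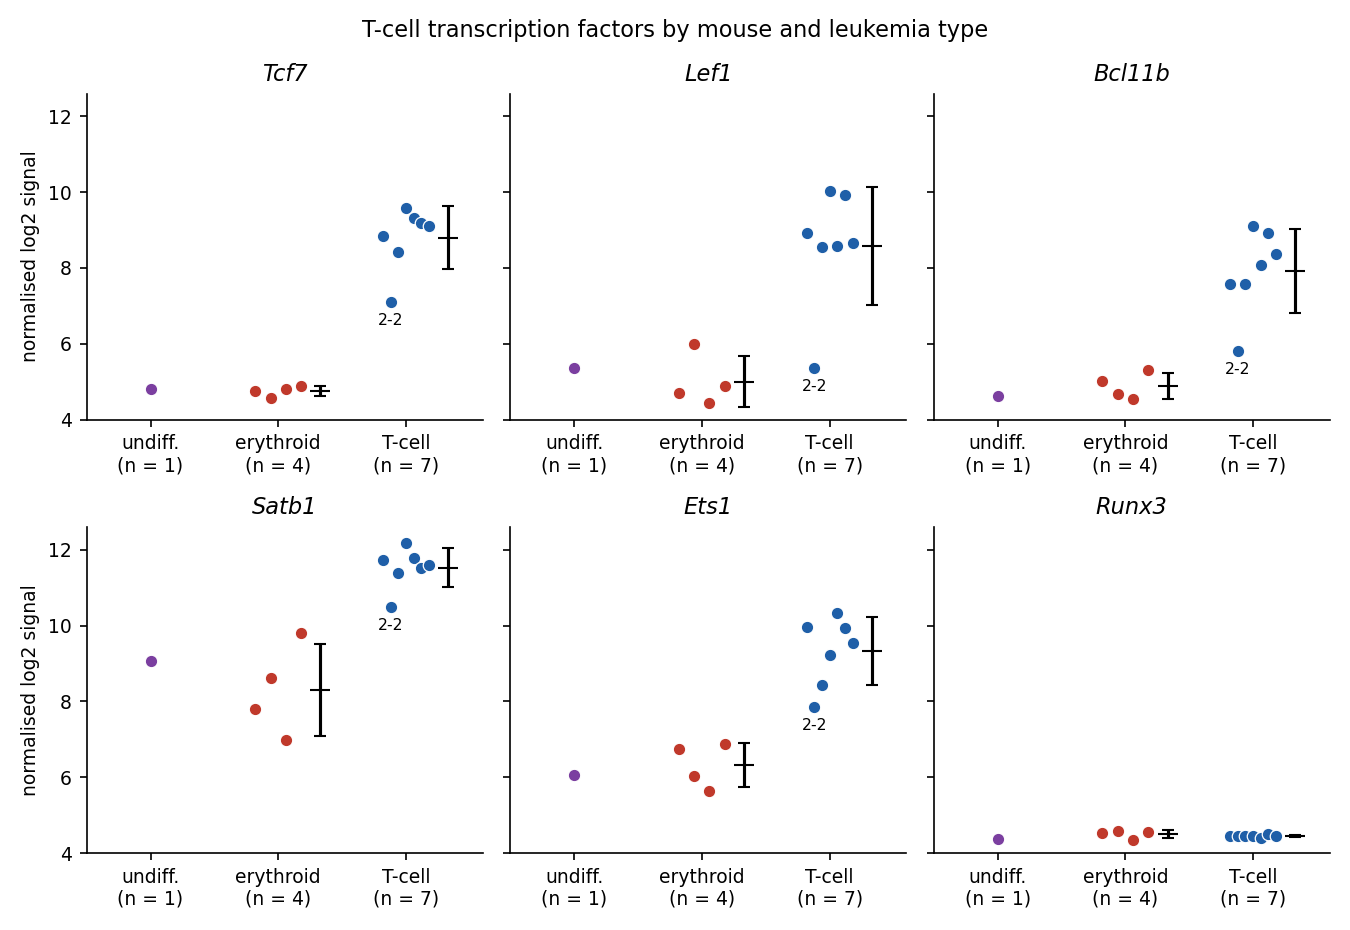
Normalised log2 signal (vertical axis) of the 6 factors with a probe in undifferentiated (purple), erythroid (red) and T-cell (blue) leukemias; points are mice and bars give the mean ± SD of groups with several mice. The T-cell mice lie above the others for Tcf7, Bcl11b, Satb1 and Ets1, T-cell mouse 2-2 is the lowest of its group in the 5 tested factors, and Runx3 stays between 4.34 and 4.59.

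The erythroid against T-cell comparison asked which of these factors separated the 2 larger groups. All 5 tested factors were lower in erythroid leukemias, where 6.43% of all genes tested were called lower and 3.86% higher. Their median log2 change was -3.22, against -0.028 over all genes. Tcf7, Lef1 and Bcl11b passed the filter of detection on at least 3 labelled arrays only through the T-cell arrays. Their probes were detected on 1, 0 and 2 of 5 erythroid arrays and on 8 of 8 T-cell arrays each. The members were also chosen with earlier results known, so the shares over all genes, here and below, describe and do not test. For 4 of the 5 factors, every erythroid mouse lay below every T-cell mouse, which held for 4.71% of all genes. That count rests on averaged arrays, and for Bcl11b it did not hold on the first array of mouse 5-5. Between the paired arrays of 1 mouse, the probes used for the 5 factors differed by up to 1.04 on the log2 scale, for Bcl11b in mouse 5-5. Over all their probes the difference was up to 1.37, for the other Lef1 probe in mouse 5-1, which is smaller than each of the 5 changes between types.

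All 5 passed when mouse 2-2 and the 2 weakest arrays were left out together, a setting chosen after seeing the data, with changes from -3.14 for Bcl11b to -4.40 for Lef1 (limma adjusted p = 0.00187 and 0.00042), where 6.67% of all genes were called lower. The arrays carry sample numbers whose meaning the labels do not give. Within numbers 1 to 8 (2 erythroid and 5 T-cell arrays), the changes ran from -2.10 for Bcl11b to -3.52 for Tcf7 and none passed (limma adjusted p = 0.202 and 0.149), where limma called 0 genes in all. At an unadjusted p under 0.05, all 5 were lower within those numbers, a level that 17.1% of all genes reached in either direction. Within numbers 9 to 16 (3 erythroid and 3 T-cell arrays), 4 passed and Satb1 did not (-3.37, limma adjusted p = 0.0572). There, limma called 180 of 10474 genes in all. With the leading number of the mouse name as a block, Lef1 did not pass (-2.90, limma adjusted p = 0.0948) and the other 4 did. That fit called fewer genes in all than the main fit, and both counts are given in the last section.

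**Figure D2:**
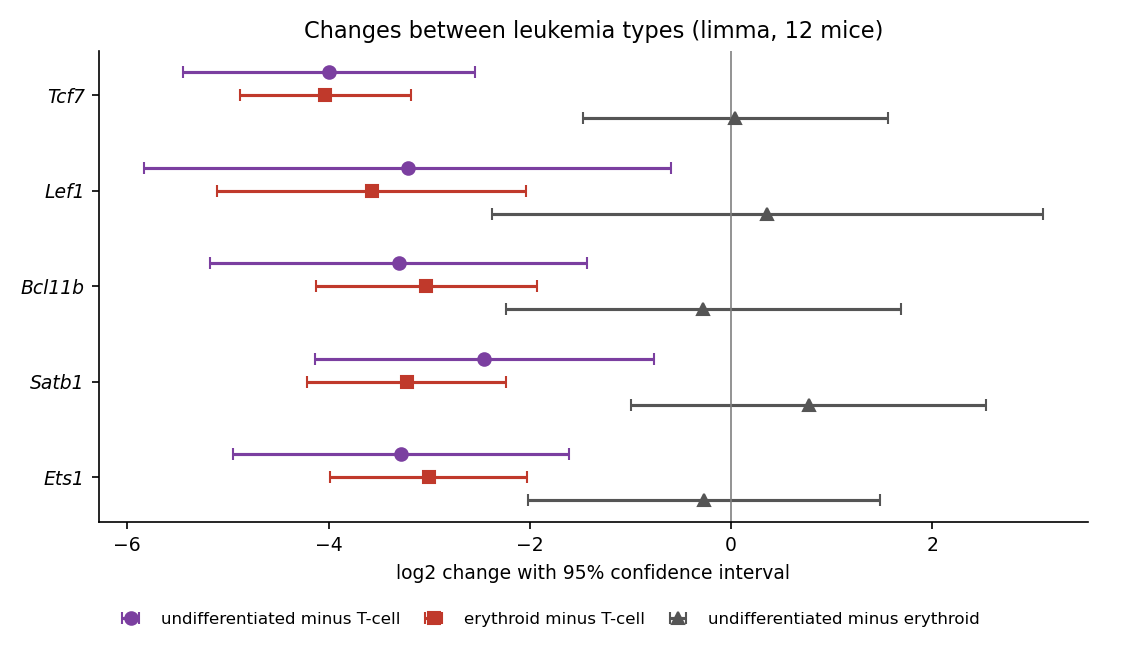
Log2 change (horizontal axis) of the 5 tested factors with 95% confidence intervals from limma over 12 mice: undifferentiated minus T-cell (purple circles), erythroid minus T-cell (red squares) and undifferentiated minus erythroid (grey triangles). Both contrasts against the T-cell leukemias lie left of 0 for each factor, from -2.45 to -4.03, and each undifferentiated minus erythroid interval spans 0, where those of Tcf7, Lef1 and Bcl11b compare signals at or near background.

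The single undifferentiated leukemia had low values of these factors. It lay below all 7 T-cell mice for 5 of 5 factors, a pattern that 14.8% of all genes shared, although for Lef1 the gap to mouse 2-2 was 5.36 against 5.37. Over the 12 mice the log2 difference was -3.99 for Tcf7 (limma adjusted p = 0.0693), -3.21 for Lef1 (0.512), -3.30 for Bcl11b (0.191), -2.45 for Satb1 (0.356) and -3.28 for Ets1 (0.142). None passed the threshold, and 0.0191% of all genes were called lower. At an unadjusted p under 0.05, all 5 were lower, as were 4.37% of all genes. Tcf7 and Bcl11b were not detected on the undifferentiated array, and their differences correspond to at least 14.0-fold and at least 7.64-fold lower signals than in T-cell leukemias. These bounds are set against the mean of the T-cell mice and leave out the spread between mice. The 95% confidence intervals of the measured log2 differences had upper ends of -2.54 for Tcf7 and -1.43 for Bcl11b. The bounds also hold only for the background correction used, and with none the log2 differences were -2.19 and -1.63.

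Leaving out T-cell mouse 2-2 changed several of these calls. Without it, Tcf7, Lef1, Bcl11b and Ets1 were lower in the undifferentiated leukemia (-4.27, -3.75, -3.65 and -3.52; limma adjusted p = 0.00269, 0.0363, 0.0233 and 0.0363), while Satb1 stood at -2.62 (limma adjusted p = 0.194), and 0.582% of all genes were called lower. Tcf7 also passed without mouse 4-1 (limma adjusted p = 0.042) and with array weights (0.0093). The fit gives the lone undifferentiated mouse the spread of the other types, which 1 mouse cannot check.

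Between the undifferentiated and the erythroid leukemias, no factor passed in limma, and 0.00955% of all genes were called. At an unadjusted p under 0.05, still no factor passed, whereas 4.72% of all genes did. Tcf7 and Bcl11b were not detected on the undifferentiated array and Lef1 was not detected on any erythroid array, so no size of a difference can be read for these 3. The differences, undifferentiated minus erythroid, were 0.77 for Satb1 (95% confidence interval -0.99 to 2.53) and -0.27 for Ets1 (-2.02 to 1.48). The value of the undifferentiated mouse lay within the range of the erythroid mice for 5 of 5 factors, as it did for 64.8% of all genes. Both intervals reach beyond 1 on the log2 scale in at least 1 direction, so differences of that size were not detectable. For each factor the T-cell mean was the highest of the 3, and the undifferentiated value lay within the spread of the erythroid mice.

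Within the T-cell leukemias, mouse 2-2 was the lowest in all 5 factors. It had a log2 signal of 7.11 for Tcf7, 5.37 for Lef1, 5.82 for Bcl11b, 10.50 for Satb1 and 7.85 for Ets1. Its summed T-cell marker signal was 3261, against 6125 to 12450 in the other T-cell mice, and its summed erythroid marker signal was 18900, within the 17060 to 30680 of the erythroid mice. Its summed granulocyte marker signal of 11940 and monocyte and macrophage marker signal of 2586 were also the highest of the T-cell mice, against 385.9 to 3954 and 451.4 to 1346 in the others. Mouse 5-1 had the next highest erythroid sum, 14770. By the probes used, it had 9.92 for Lef1 and 8.92 for Bcl11b, which only mouse 4-2 exceeded among the T-cell mice. Its Tcf7 of 9.19 and Ets1 of 9.93 were above the medians of the T-cell mice, and its Satb1 of 11.51 was below the median. By the other Lef1 probe, mouse 5-3 (9.48) also read above mouse 5-1 (9.29). Mouse 4-2 had the highest Tcf7, Lef1, Bcl11b and Satb1 and the lowest erythroid sum, 1129, but its Ets1 of 9.23 was below the median. The part of other spleen cells in these values was not tested.

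**Figure D3:**
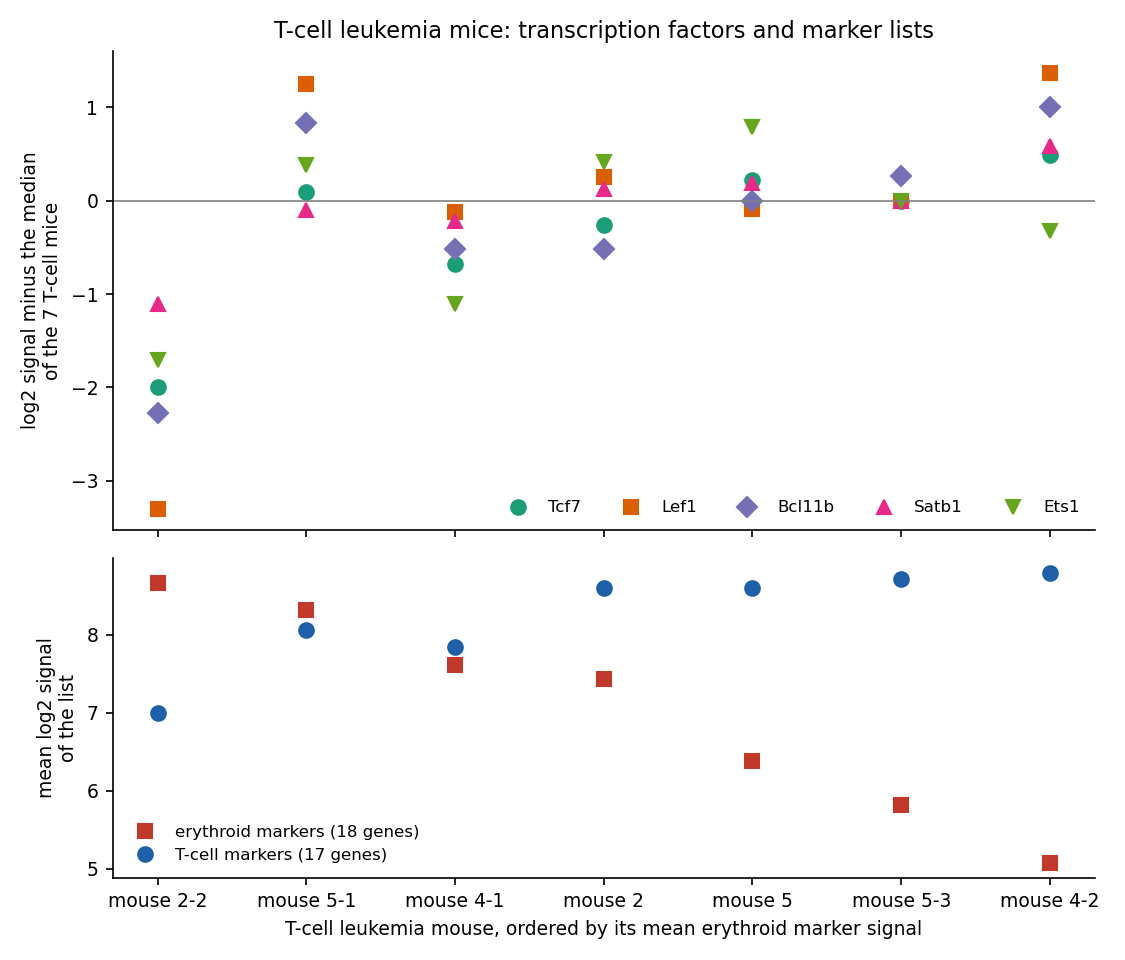
Upper panel: log2 signal of the 5 tested factors minus the median of the 7 T-cell leukemia mice (vertical axis). Lower panel: mean log2 signal of the erythroid (red squares, 18 genes) and T-cell (blue circles, 17 genes) marker lists in the same mice, ordered by the erythroid mean; mouse 2-2, at the left, is lowest in all 5 factors, whereas mouse 5-1 beside it is not.

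Across the 7 T-cell mice, 10 pairs of factors were compared, and Pearson's r ran from 0.668 to 0.953. For 7 pairs the exact two-sided permutation p, adjusted over the 10 pairs, was under 0.05. How many pairs of other genes reach this level in the same mice was not counted. The number of pairs therefore does not set these factors apart from other genes. The closest pair, Lef1 and Bcl11b, had r = 0.953 (exact permutation p = 0.00496, adjusted 0.0165) and Spearman's rho = 0.893 (exact permutation p = 0.0123, adjusted 0.0615), and Tcf7 and Bcl11b had r = 0.951 (exact permutation p = 0.00218, adjusted 0.0159) with the same rho. No pair passed by rho, whose adjusted exact permutation p ran from 0.0615 to 0.444. Without mouse 2-2, r ran from 0.0548 to 0.839 over 6 mice. Without the 2 mice farthest from the median of the first gene, r was 0.728 for Lef1 and Bcl11b and 0.776 for Tcf7 and Bcl11b. In that setting it changed sign for Tcf7 and Ets1 (-0.407), Lef1 and Satb1 (-0.214) and Bcl11b and Satb1 (-0.0826), so in these values those 3 relations did not hold among the 5 mice that remained. Under median scaling, where other mice were the farthest beside 2-2, the same 3 pairs had 0.447, 0.923 and 0.875.

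The mouse names start with 2, 4 or 5, and the labels do not say what the number marks. By that number, Bcl11b averaged 6.69 (n = 2 mice), 8.33 (n = 2) and 8.46 (n = 3) in T-cell leukemias and Lef1 7.14, 9.29 and 9.05, with mouse 2-2 in the lowest group. No factor differed between the numbers (limma F-test adjusted p = 1 for each, where 0.00955% of all genes were called). Before adjustment, Bcl11b alone of the 5 factors reached the threshold, as did 2.61% of all genes.

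The genes whose profiles were most like each factor were found by the root mean square difference between log2 profiles centred on their mean over the 12 labelled mice, without regard to level. For Tcf7 they were Cd3g, a subunit of the T-cell receptor (0.364), Rasgrp1, an activator of Ras (0.447), and the locus LOC100048845 (0.48), where the median gene differed by 2.12. For Lef1 they were Bcl11b itself (0.64), the costimulatory receptor gene Cd27 (0.698) and the zinc finger gene Sall2 (0.73), which was detected on 0 of 5 erythroid arrays. For Bcl11b they were Sall2 (0.449), Gfi1, a zinc finger repressor (0.459), and the immunophilin gene Fkbp1a (0.467). Satb1 was nearest to the linker histone gene H1f0 (0.478), the lipoprotein receptor gene Lsr (0.589) and the kinase gene Prkd3 (0.61), and Ets1 to the kinase gene Snrk (0.415), Igfbp4, which encodes a binding protein of insulin-like growth factors (0.431), and Lsr (0.463). All these profiles share the step between leukemia types, so the likeness is a description and no test.

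Of 12 measured relatives of the factors, 2 were lower and none was higher in erythroid leukemias, with a median of -0.45 against -0.028 over all genes. Of all genes, 6.43% were called lower and 3.86% higher. Ets2, the nearest relative of Ets1, averaged 5.26 ± 0.61 (SD, n = 4) in erythroid mice against 7.78 ± 1.00 (SD, n = 7) in T-cell mice (log2 -2.52, limma adjusted p = 0.0103). Cbfb, the partner that stabilises RUNX proteins on DNA, averaged 8.77 ± 0.79 (SD, n = 4) in erythroid mice against 10.18 ± 0.46 (SD, n = 7) in T-cell mice (-1.41, limma adjusted p = 0.026), and did not pass under median scaling (-1.84, 0.0988). Runx1, which is used across blood lineages, stood at -0.27 (limma adjusted p = 0.657). Without mouse 2-2, where 7.94% of all genes were called lower and 5.69% higher, Elf1, an ETS-domain factor of blood cells, was lower too (-1.41, limma adjusted p = 0.0339), and Bcl11a, the relative of Bcl11b, was higher (2.37, 0.0245).

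Among 24 other regulators of T-cell development, 9 were lower and 15 did not pass, with a median of -0.94. Of all genes, 6.43% were called lower. Gfi1 averaged 5.31 ± 0.80 (SD, n = 4) in erythroid mice against 8.31 ± 0.70 (SD, n = 7) in T-cell mice (-3.0, limma adjusted p = 0.00243). Bach2, a repressor that keeps lymphocytes from terminal differentiation, changed by -2.37 (limma adjusted p = 0.00957) and Ikzf2, an Ikaros family factor, by -1.93 (0.0142). Ikzf1, the founding member of that family, changed by -1.42 (limma adjusted p = 0.0272). Nfatc2, a calcium-regulated factor of activated T cells, averaged 4.81 in erythroid and 6.85 in T-cell leukemias (limma adjusted p = 0.0274), although the probe used was detected on 0 of 5 erythroid arrays. Gata3, a core regulator of the same thymic sequence, stood at -0.98 (limma adjusted p = 0.0984). The count was 4 under median scaling and 3 with cyclic loess, where 384 and 445 of all 10474 genes were called lower. Gfi1 and Bach2 passed in both. The count was 10 without mouse 2-2, where 7.94% of all genes were called lower.

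Regulators of the progenitor state went both ways. Of 10 measured, Lyl1, a partner of Tal1 in blood progenitors, was higher at 7.46 ± 1.09 (SD, n = 4) in erythroid mice against 5.57 ± 0.76 (SD, n = 7) in T-cell mice (log2 1.89, limma adjusted p = 0.0307). Hoxa9, a homeobox gene of progenitors, was lower at 4.9 ± 0.45 (SD, n = 4) in erythroid mice against 5.89 ± 0.39 (SD, n = 7) in T-cell mice (-0.99, limma adjusted p = 0.0376). Over all genes, 3.86% were called higher and 6.43% lower. The list's median was 1.55, and neither gene passed under median scaling (limma adjusted p = 0.16 for Lyl1 and 0.0661 for Hoxa9). Without mouse 2-2, Bcl11a, Nfe2 (3.23, limma adjusted p = 0.0171) and Tal1 (2.44, 0.0187) were higher too, so that 4 of the 10 were higher and 1 was lower. In that setting, 5.69% of all genes were called higher and 7.94% lower. Of 17 partners of TCF and LEF factors and targets of Wnt signals, none passed in limma, the median was -0.36, and 5 were lower and 1 was higher at an unadjusted p under 0.05, a level at which 15.9% of all genes were lower and 12.2% higher. Without mouse 2-2, Tle3, a corepressor of these factors, was lower (limma adjusted p = 0.0256), and without mouse 2-2 and the 2 weakest arrays Tle3 (0.048) and Axin2 (0.0399) were, although the probes used for both were detected on 0 of 5 erythroid arrays. Axin2, a feedback target of the pathway, stood at -1.51 over all mice (limma adjusted p = 0.0788), and Ctnnb1, the coactivator that binds these factors, at -0.51 (0.254).

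**Figure D4:**
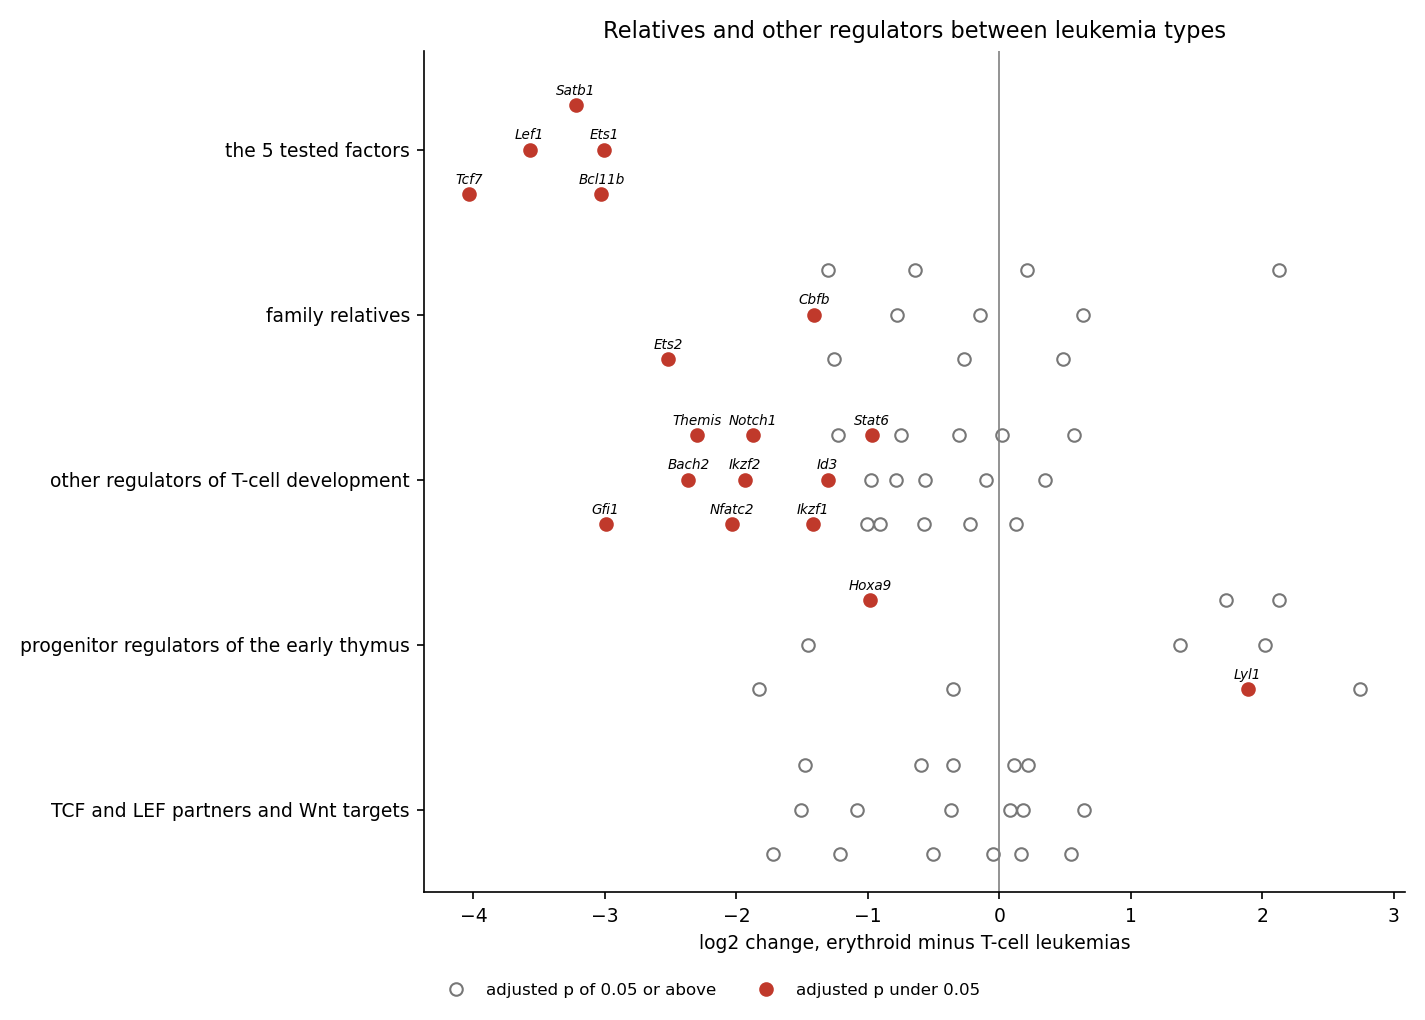
Log2 change, erythroid minus T-cell leukemias (horizontal axis), of the 5 tested factors and of 4 lists of related genes; filled red circles passed an adjusted p under 0.05, open circles did not, and vertical offsets only separate the points. The 5 factors lie between -4.03 and -3.01, while the lists have medians of -0.45, -0.94, 1.55 and -0.36 from top to bottom.

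Markers of the leukemic lineages moved with the leukemia type, whereas few markers of other spleen cells passed over the 12 mice. The T-cell markers had 12 of 17 lower and the erythroid markers 8 of 18 higher in erythroid leukemias (12 of 18 without mouse 2-2). Over all genes, 6.43% were called lower and 3.86% higher (7.94% and 5.69% without mouse 2-2). Under median scaling 0 of 18 erythroid markers passed and 12 were higher at an unadjusted p under 0.05, as were 3.89% of all genes. Of the NK and cytotoxic markers, 1 of 7 was lower, Il2rb at -1.66 (limma adjusted p = 0.0313), which did not pass under median scaling (0.0728) or with cyclic loess (0.0696). Of 9 megakaryocyte and platelet markers, 2 were higher, Selp at 1.20 (limma adjusted p = 0.00957) and F2rl2 at 1.56 (0.028), and neither passed under median scaling. Without mouse 2-2, 4 of these 9 were higher, with Itga2b (2.27, limma adjusted p = 0.013) and Pf4 (2.77, 0.0206) added. None of 9 B-cell, 11 granulocyte, 13 monocyte and macrophage or 5 progenitor markers passed in limma, whereas the monocyte marker Csf1r was higher without mouse 2-2 (1.09, limma adjusted p = 0.046). At an unadjusted p under 0.05, 1 B-cell marker was lower and 1 monocyte and macrophage marker was higher. At that level, 15.9% of all genes were lower and 12.2% higher. The part of these cells in the values of the factors was not tested.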

How the data were processed

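Gene expression was measured on 15 bead arrays of unsorted mouse spleen. The authors deposited a mean bead intensity, a detection p-value, a bead number and a standard error over beads for each of 25697 probes, without normalization. The authors also deposited a table of log2 values, made with limma and R 3.0.2 per the submitters' processing notes. That table correlated with the present values at r = 0.99998 or above on each array and served as an alternative. The scanner software and the build behind the probes are not named.

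Background correction and normalization followed limma's neqc (limma 3.58.1, R 4.3.3: normexp with negative controls taken from the detection p-values, offset 16, quantile normalization over 15 arrays, log2). Probes detected at p under 0.05 on at least 3 of 14 labelled arrays were kept (14432). Arrays of a mouse were averaged, and each gene was read from its probe with the highest mean. The leukemia types were compared over 12 mice with lmFit and eBayes and Benjamini-Hochberg adjustment over 10474 genes at 0.05. The numbers that start the mouse names were tested with a moderated F-test. A fold against a group with no detected array was set against each array's lowest detected signal and is written as at least that fold. Such a bound holds for the background correction and offset used. It compares group means and leaves out the spread between mice. Over the beads, the standard error of the listed factors' probes was 1.67% to 6.58% of the intensity, from 22 to 55 beads. The number of mice limits the precision. P-values measure the spread between mice, and the labels do not say whether mice with a shared number are related. The erythroid mice 2-3, 2-3-2 and 2-3-3 also share a longer start of their names. If they are related, the erythroid mice are fewer separate leukemias than the tests assume, and the p-values may be too small.

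The members and the gene lists were chosen with earlier results of these data known. Genes named beside the factors were the 5 best-ranked members, by adjusted p, of each list among those past the threshold, those passing against the majority of their list, and the 3 genes nearest to each factor's profile. Runx1, Gata3, Axin2, Ctnnb1 and the genes called only without mouse 2-2 fall outside this rule and were named after their values were seen. Symbols were brought up to date through RefSeq (GRCm38.p6), which matched all but 1061 probes. On simulated data over 10474 genes, 196 of 200 genes changed by 3 on the log2 scale were recovered for erythroid minus T-cell and 148 of 200 for undifferentiated minus T-cell. The array with no type label entered the normalization and no comparison.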

Additional observations from a re-analysis of the deposited data

Results flagged for a closer look

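Values were tested for standing apart within groups of 4 or 7 mice, in 84 tests, where chance alone gives about 1 in 20. The values that stood apart, listed next, were no more frequent than that. Lef1 by the probe used stood apart in T-cell mouse 2-2, at a log2 signal of 5.37 with the next T-cell mouse at 8.55. By the other Lef1 probe mouse 2-2 was also lowest, at 4.91 with the next at 7.62, but did not stand apart by this rule. Ikzf1 stood apart in the same mouse, at 8.46 with the next T-cell mouse at 9.61. Among the erythroid mice, Dmtn, a membrane skeleton gene of red cells, stood apart in mouse 5-5 at 8.22, with the next at 7.14. Ank1, another membrane skeleton gene, stood apart in erythroid mouse 2-3 at 9.01, with the next at 10.24.

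The array with neither a mouse nor a leukemia type in its labels had clear signals of all 5 tested factors. Its log2 signals were 9.80 for Tcf7, 9.72 for Lef1, 9.74 for Bcl11b, 12.42 for Satb1 and 9.53 for Ets1. By the probes used, the values of Tcf7, Bcl11b and Satb1 were above those of all labelled mice, and Lef1 and Ets1 lay within the range of the T-cell mice. The other probes of Lef1 (10.46) and Ets1 (8.57 and 9.32) read above all labelled mice. No type was assigned to it from these values.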

How the results depend on the processing

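All 5 tested factors kept their sign between erythroid and T-cell leukemias in 31 of 31 alternatives, and each passed in 29 or 30 of them. The count of factors lower was 5 without any 1 of the 12 mice and 0 within sample numbers 1 to 8. Over all genes, 1078 were called between these types. The count was 427 under median scaling, 579 with no filter and also 579 without the 2 weakest arrays, 1988 with array weights, 109 with the leading number as a block, 0 within sample numbers 1 to 8 and 180 within 9 to 16. Leaving out 1 mouse gave 466 (without mouse 5-5) to 1474 (without mouse 2-3). Under median scaling the median over all genes was -0.22 and 89.9% of calls were lower, against 62.5% as reported and 54.8% with cyclic loess.

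Against the T-cell leukemias, the undifferentiated mouse had 2 genes called, Bbx (-2.96) and Lbh (-4.0, limma adjusted p = 0.0307 for both). The count was 1 under median scaling, with no background correction and with the leading number as a block, 4 with an offset of 50, 5 with the strict filter and with the mean of probes, 8 without the 2 weakest arrays, 17 with no filter, 45 with cyclic loess and 94 with array weights. It was 0 to 63 without 1 mouse, with 63 without mouse 2-2, and 83 without mouse 2-2 and the 2 weakest arrays (chosen after seeing the data). Against the erythroid leukemias, 1 gene was called, Bbx (-3.11, limma adjusted p = 0.0457). The count was 2 with cyclic loess, 3 with array weights and 10 with no filter. It was 0 under median scaling, with the strict filter, every filtered probe, the first array of each mouse, the trend and robust prior, numbers 1 to 8 against 9 to 16 as a block, within numbers 1 to 8, and without mouse 2-2 and the 2 weakest arrays, and 0 to 9 without 1 mouse. Among T-cell leukemias by leading number, 1 gene was called, Akr1c18 (limma F-test adjusted p = 0.00176). The count was 2 with no filter, 0 with the strict filter, 3 without the 2 weakest arrays, 13 with array weights, 0 within sample numbers 1 to 8 and 0 within 9 to 16 and 1 to 4 without 1 mouse.

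Between pairs of factors, r reversed without the 2 farthest mice for Tcf7 and Ets1 (-0.407), Lef1 and Satb1 (-0.214) and Bcl11b and Satb1 (-0.0826), and under median scaling the same pairs had 0.447, 0.923 and 0.875. The cause of these changes was not tested. The correlation of deviations between erythroid and T-cell mice was -0.113 for leading number 2 and 0.0205 for leading number 5. These values are not separate checks, because deviations were taken from the mean of each type and number 5 holds 1 erythroid mouse. They cannot show whether mice with the same leading number deviate together. No paired analysis was possible because the replicate numbers in the labels mark arrays of 1 mouse, and the leading number used as a block is not a replicate number. The undifferentiated contrasts could not be fitted within numbers 9 to 16 or without mouse 4-3, and the F-test was not run with the leading number as a block. Signal over background limits Tcf7, Lef1 and Bcl11b in erythroid mice, Tcf7 and Bcl11b in the undifferentiated mouse, and Runx3 everywhere. With no background correction, the changes from T-cell to erythroid leukemias were -2.22 for Tcf7, -2.06 for Lef1 and -1.54 for Bcl11b.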
